A study of Mus musculus with 6 samples.

Results

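The genes described here encode the proteasome, its activators and its assembly factors: the protein-coding genes of the deposited table whose symbol begins with Psma, Psmb, Psmc, Psmd, Psme, Psmf or Psmg. They number 50 of the 54532 genes in the table, and they were chosen by name and not by any value. By role, 31 are constitutive subunits of the 20S core or the 19S regulatory particle and 5 are interferon-inducible genes (Psmb8, Psmb9, Psmb10, Psme1 and Psme2). A further 7 encode assembly chaperones, 3 encode other activators or inhibitors (Psme3, Psme4, Psmf1), and 2 are tissue-restricted (Psma8, Psmb11). Psme2b is a single-exon copy of Psme2, and Psmc3ip carries the name but encodes no subunit. Another 4 rows with such names are pseudogenes with 0 to 2 reads each over all 6 libraries and were left out.

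Transcripts were measured by bulk RNA-seq in 3 libraries of the SAHH-KO group and 3 libraries of the control group, all labelled as primary mouse peritoneal macrophages. SAHH is S-adenosylhomocysteine hydrolase, the product of Ahcy, which removes the inhibitory by-product of methyltransferase reactions. The labels describe the first group as SAHH-KO in the title and as an SAHH knockdown in the genotype field, and the control group as shControl in the title and as WT in the genotype field. In both groups the cells had been recruited by thioglycollate, collected at 4 days, enriched by 6 h of adherence and stimulated for 8 h with IFN-gamma at 2 ng/mL plus LPS at 10 ng/mL. Every value below therefore describes stimulated cells. The strain, age and sex of the mice, the targeting reagent, and whether replicates stem from different animals or cultures are not given in the labels. The p-values thus measure the spread between these libraries, which may be technical.

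The proteasome degrades ubiquitin-tagged proteins. Its barrel-shaped 20S core holds a pair of outer rings of α subunits and a pair of inner rings of β subunits, of which Psmb5, Psmb6 and Psmb7 carry the proteolytic sites, and the 19S particle at its ends binds, unfolds and feeds the substrate. Interferon-γ induces Psmb8, Psmb9 and Psmb10, which replace those catalytic subunits in newly assembled cores, and the PA28αβ cap made of Psme1 and Psme2; in macrophages and other antigen-presenting cells this immunoproteasome supplies peptides for MHC class I.

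SAHH-KO libraries held 15856261 to 17748745 reads assigned to genes and control libraries 15540442 to 16676534. Ahcy, the targeted gene, was read at 5.51, 5.50 and 6.23 FPKM (fragments per kilobase of a gene's exons after the authors' scaling of library size) in SAHH-KO and at 25.8, 22.6 and 24.4 FPKM in control. The log2 fold change was -1.90 (limma adjusted p = 1.44e-06), although 66.0% of the 50-base words of Ahcy transcripts also occur in Gm4737, so reads of the pair cannot be assigned with certainty. Gm4737 averaged 17.96 ± 2.50 FPKM in SAHH-KO and 66.2 ± 2.51 FPKM in control (log2 -1.83, limma adjusted p = 4.10e-06), so both genes of the pair were lower. Of 10 macrophage markers 8 passed the expression filter and 5 of them were higher in SAHH-KO (4 higher and 1 lower under TPM scaling), while 26.4% of all genes tested were higher. The summed levels were 9568 to 10853 FPKM in SAHH-KO and 8529 to 8818 FPKM in control. Most of the sum was Lyz2, with means of 6616 FPKM in SAHH-KO and 5653 FPKM in control. Lyz2, Cd68 and Csf1r did not pass (limma adjusted p = 0.0670, 0.677 and 0.0568), though all SAHH-KO libraries of Csf1r lay below control. Of 8 peritoneal macrophage markers Gata6, Timd4 and F5 had 0 reads in all 6 libraries, so these defining genes of resident peritoneal macrophages were at 0. The labels describe cells recruited by thioglycollate, whereas these genes mark resident ones. The summed level of the 8 was 0.848 to 1.46 FPKM in SAHH-KO and 1.93 to 2.63 FPKM in control. Icam2 was lower, with means of 0.861 FPKM in SAHH-KO and 1.60 FPKM in control (log2 -0.50, limma adjusted p = 0.0224). Cd93 was under the filter and not tested, with means of 0.149 FPKM in SAHH-KO and 0.603 FPKM in control. The macrophage markers Marco and Mertk had 2 reads each over all 6 libraries. Among genes chosen after their values were seen, the MHC class II genes H2-Aa and H2-Ab1 had 0 and 5 reads over all 6 libraries, their regulator Ciita 0 and the inflammasome adaptor Pycard 11, so the labelled cell source is not settled by these markers. The summed markers of B cells (0.253 to 0.465 FPKM in SAHH-KO, 0.259 to 0.283 FPKM in control) and of T and NK cells (0 to 0.0695 FPKM in SAHH-KO, 0 to 0.0150 FPKM in control) were near 0. The summed neutrophil markers were 0 to 0.473 FPKM in SAHH-KO and 4.13 to 5.10 FPKM in control, where S100a8 was lower in SAHH-KO (log2 -2.26, limma adjusted p = 1.09e-05) and Ly6g, S100a9, Mpo and Cxcr2 were at 0. All 12 of 12 proliferation genes were lower in SAHH-KO, while 26.8% of all genes tested were lower. Their summed level was 129 to 174 FPKM in SAHH-KO and 441 to 472 FPKM in control. The part of the neutrophil and proliferation genes in the proteasome values was not tested. In bulk RNA, fewer cells of a type and less RNA per cell cannot be told apart.

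Promoter sequence is shown first for the genes on which the contrast turns: Psme1, Psmb8 and Psmb9 as interferon-inducible genes, and Psmb5 as the constitutive partner of Psmb8. Each window is taken from RefSeq on GRCm38.p6 and runs from 250 bases before to 50 bases after the annotated start, 5′ to 3′ on the strand of the gene. For all 4 genes the RefSeq start lies inside the gene as the deposited table bounds it, so the windows do not sit at the table's gene starts. Capitals mark a match to 1 of 3 elements searched on both strands: the interferon-stimulated response element (GAAA, any NN, then GAAA again), the gamma-activated site TTCNNNGAA and the antioxidant response element core TGACNNNGC, the kind of element bound by NRF1.
Psme1 (chr14:55578244-55578543, plus strand): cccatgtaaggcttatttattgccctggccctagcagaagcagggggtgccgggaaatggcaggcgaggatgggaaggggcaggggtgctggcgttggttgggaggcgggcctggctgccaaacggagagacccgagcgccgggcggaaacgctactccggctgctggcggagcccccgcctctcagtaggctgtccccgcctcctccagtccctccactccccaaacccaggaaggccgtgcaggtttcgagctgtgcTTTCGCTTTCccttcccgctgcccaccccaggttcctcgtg
Psmb8 (chr17:34197945-34198244, plus strand): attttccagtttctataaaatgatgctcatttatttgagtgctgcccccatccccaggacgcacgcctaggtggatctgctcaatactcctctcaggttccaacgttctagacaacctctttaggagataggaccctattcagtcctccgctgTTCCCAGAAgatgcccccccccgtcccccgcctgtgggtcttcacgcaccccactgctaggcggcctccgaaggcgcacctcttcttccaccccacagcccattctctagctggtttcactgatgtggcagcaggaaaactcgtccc
Psmb9 (chr17:34187281-34187580, minus strand): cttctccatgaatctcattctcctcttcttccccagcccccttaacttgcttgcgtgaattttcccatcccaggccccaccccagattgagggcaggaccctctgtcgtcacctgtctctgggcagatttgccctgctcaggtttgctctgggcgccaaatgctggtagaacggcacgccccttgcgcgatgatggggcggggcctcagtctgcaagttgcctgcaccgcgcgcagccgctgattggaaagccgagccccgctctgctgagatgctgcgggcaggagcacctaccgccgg
Psmb5 (chr14:54617946-54618245, minus strand): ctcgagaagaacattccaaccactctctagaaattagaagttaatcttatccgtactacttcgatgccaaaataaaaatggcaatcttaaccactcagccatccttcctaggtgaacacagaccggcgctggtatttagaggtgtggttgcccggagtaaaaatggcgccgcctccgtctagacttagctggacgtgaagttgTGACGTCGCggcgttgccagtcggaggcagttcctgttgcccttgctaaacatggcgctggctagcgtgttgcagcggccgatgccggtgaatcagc
Psme1 holds the interferon-stimulated element in reverse, TTTCGCTTTC, with its first base 9 bases after the start. Psmb8 holds a gamma-activated site, TTCCCAGAA, whose first base lies 97 bases before the start, and Psmb5 holds the antioxidant core TGACGTCGC 47 bases before its start. The Psmb9 window holds none of the 3 elements, and neither do those of Psmb10 and Psme2; these letters are then absent from these windows only. RefSeq windows were matched for 42 of the 50 genes. The interferon-stimulated element was found in 5 of the 42 (Psme1, Psmb3, Psmd4, Psmd9, Psmg4), against 3.44% of all 32851 mouse promoter windows. The gamma-activated site was found in 3 (Psmb8, Psmd2, Psmg1), against 8.30% of all windows, and the antioxidant core in 6 (Psmb5, Psmb6, Psmc6, Psmd12, Psmd9, Psme4), against 12.4%. A match describes the letters and does not show a bound site.

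All 5 interferon-inducible genes were higher in SAHH-KO macrophages, by 1.54-fold to 3.16-fold in mean FPKM, whereas the 31 constitutive subunits comprised 2 that were higher, 13 that were lower and 16 that did not pass. Of the 50 genes, 49 had at least 1 FPKM in all 6 libraries and were tested. Psmb11, the catalytic subunit of the thymus-specific proteasome, was not, with 1 read in all. Of those 49, 8 were higher and 19 lower in SAHH-KO (limma, Benjamini-Hochberg adjusted p under 0.05 over all 10362 genes tested), or 16.3% and 38.8%, while 26.4% and 26.8% of all genes tested passed in the same directions and 53.3% in either. The groups did not overlap for 9 genes that were higher and 20 that were lower, which compares with 30.7% and 31.6% of all genes tested, 62.3% in either direction. The median log2 fold change was -0.17 over the 49 genes and -0.01 over all genes tested, where a fold change is the difference between group means of log2(FPKM + 1), SAHH-KO minus control. The scale of the deposited values matters to these counts: dividing by total FPKM (TPM) or by assigned reads moved the median of all genes by -0.16 and -0.14 in log2. Either scaling then gave 7 higher and 30 lower of the 49 genes, with 2006 higher and 3894 lower of all genes under TPM scaling and 2033 and 3905 under assigned-read scaling.

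**Figure D1:**
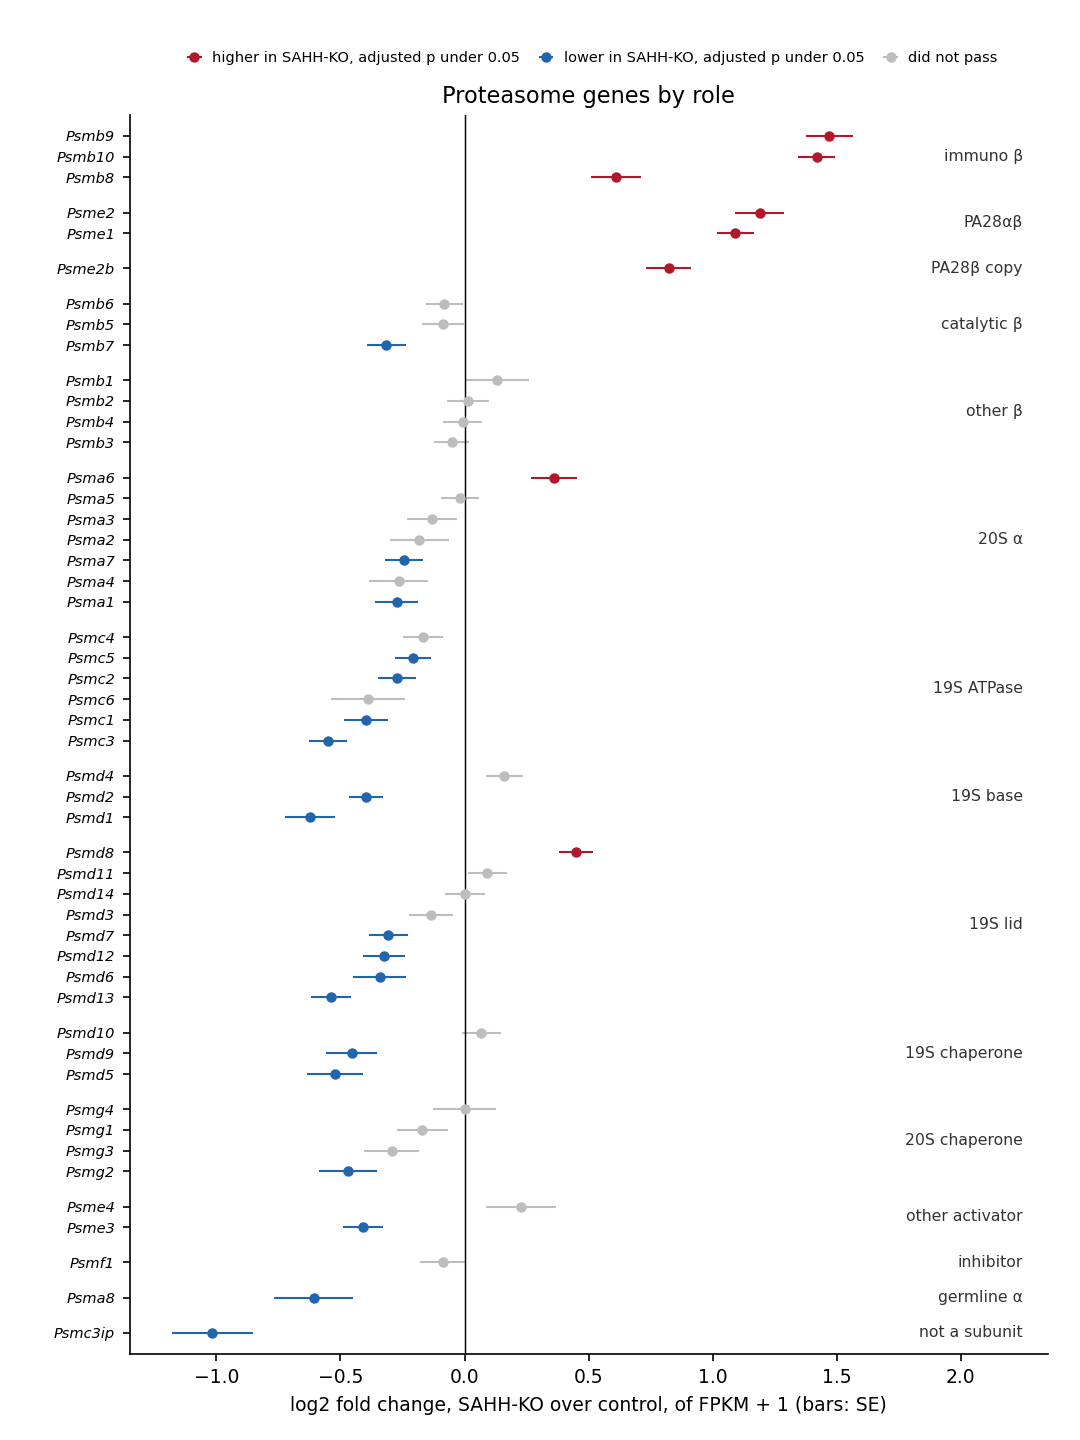
Log2 fold change (SAHH-KO over control, FPKM + 1) of the 49 tested proteasome genes, grouped by role, with points for the estimate and bars for its SE; colours mark the side of the adjusted p threshold. The interferon-inducible genes and Psme2b lie between 0.61 and 1.47, while most genes of the 19S particle lie below 0.

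Psmb8, Psmb9 and Psmb10 encode the inducible catalytic subunits. Psmb8 (ENSMUSG00000024338; GRCm38 chromosome 17, 34197721 to 34201454, plus strand) was read at 44.9, 43.2 and 45.5 FPKM in SAHH-KO and at 30.9, 24.7 and 31.3 FPKM in control. Its mean was 44.5 ± 1.19 FPKM in SAHH-KO and 29.0 ± 3.73 FPKM in control (SD, n = 3 each), a 1.54-fold difference (log2 0.61, SE 0.102, limma adjusted p = 0.00132). All 3 SAHH-KO libraries stood above all 3 control libraries. Psmb9 (ENSMUSG00000096727; chromosome 17, 34181988 to 34187764, minus strand) was read at 16.4, 13.3 and 14.3 FPKM in SAHH-KO and at 4.90, 4.42 and 4.62 FPKM in control. With means of 14.7 ± 1.58 FPKM in SAHH-KO and 4.64 ± 0.239 FPKM in control it had the largest ratio among the 49 tested genes, 3.16-fold (log2 1.47, SE 0.0957, limma adjusted p = 8.33e-06), at the lowest level of the inducible subunits in both groups. Psmb10 (ENSMUSG00000031897; chromosome 8, 105935735 to 105938444, minus strand) was read at 83.1, 84.0 and 81.5 FPKM in SAHH-KO and at 32.2, 29.0 and 30.0 FPKM in control. Its 2.73-fold difference (log2 1.42, SE 0.0736, limma adjusted p = 2.81e-06) separated groups that were each narrow, with means of 82.9 ± 1.29 FPKM in SAHH-KO and 30.4 ± 1.62 FPKM in control.

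Psmb8 and Psmb9 sit on chromosome 17 between and beside the peptide transporter genes Tap1 and Tap2. The annotated ends of Psmb9 and Tap1, which run in opposite directions, overlap by 212 bases, and the start of Tap1 at base 34187553 lies within the promoter window printed for Psmb9. Psmb8 begins 495 bases beyond the end of Tap1 and ends 2072 bases before Tap2. Of the exon bases of Psmb9, 5.79% are shared with Tap1, whose reads' part in the Psmb9 values was not tested, and of those of Psmb8, 14.7% are shared with the antisense gene Gm20496, which had 0 to 3 reads in any library. The sources used here do not state whether counting was by strand.

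Psme1 and Psme2 encode the α and β subunits of the PA28αβ activator and lie 5911 bases apart on chromosome 14. Psme1 (ENSMUSG00000022216; 55578123 to 55581529, plus strand) was read at 76.1, 82.4 and 79.1 FPKM in SAHH-KO and at 37.3, 34.8 and 37.9 FPKM in control, a 2.16-fold difference (log2 1.09, SE 0.0748, limma adjusted p = 1.09e-05). Psme2 (ENSMUSG00000079197; 55587441 to 55591113, minus strand) was read at 96.1, 97.5 and 97.1 FPKM in SAHH-KO and at 46.8, 36.5 and 43.2 FPKM in control, a 2.30-fold difference (log2 1.19, SE 0.0980, limma adjusted p = 2.84e-05). For both genes the lowest SAHH-KO library was above the highest control library. Psme2b, on chromosome 11, shares 69.3% of its 50-base words with other genes, 68.7% with Psme2 alone, so reads of the pair may be split between them. Psme2b had 122, 117 and 120 FPKM in SAHH-KO and 59.9, 68.5 and 74.0 FPKM in control (log2 0.82, SE 0.0902, limma adjusted p = 0.000138). Summed over Psme2 and Psme2b, the reads came to 271 ± 0.901 CPM in SAHH-KO and 131 ± 8.43 CPM in control, on the library sizes the authors used (SD, n = 3 each), 2.07-fold. If each read was counted once, this sum does not depend on how reads were split within the pair. The sources used here do not state how reads matching several genes were counted. The calls of Psmb8, Psmb9, Psmb10, Psme1, Psme2 and Psme2b kept their direction and stayed under the threshold in each of the 15 alternative fits.

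**Figure D2:**
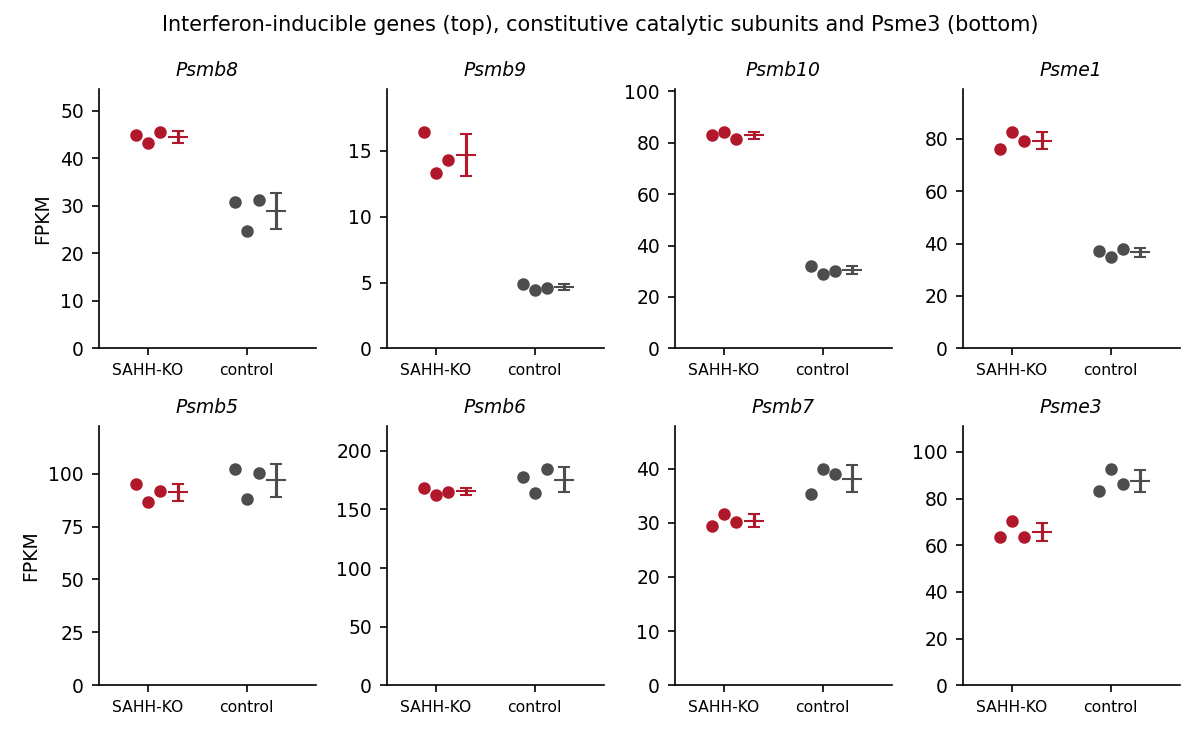
FPKM in each library (points) of Psmb8, Psmb9, Psmb10 and Psme1 in the upper row and of Psmb5, Psmb6, Psmb7 and Psme3 in the lower row, SAHH-KO in red and control in grey, with the mean and SD of 3 libraries beside the points; each axis starts at 0. The groups are separate in every panel of the upper row, overlap for Psmb5 and Psmb6, and are separate with SAHH-KO below for Psmb7 and Psme3.

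None of the constitutive catalytic subunits was higher. Psmb5, the chymotrypsin-like subunit, was read at 95.1, 86.8 and 91.7 FPKM in SAHH-KO and at 102, 88.1 and 100.3 FPKM in control. These groups overlapped (log2 -0.09, limma adjusted p = 0.426). Psmb6, the caspase-like subunit, was read at 168, 163 and 165 FPKM in SAHH-KO and at 178, 164 and 185 FPKM in control, with overlap again (log2 -0.08, limma adjusted p = 0.382). Psmb7, the trypsin-like subunit, was read at 29.5, 31.7 and 30.1 FPKM in SAHH-KO and at 35.3, 39.9 and 39.1 FPKM in control and was lower (log2 -0.31, SE 0.0799, limma adjusted p = 0.0106); without SAHH-KO replicate 3 its adjusted p was 0.0502. Of its exon bases 11.8% are shared with the opposite-strand gene Nek6, which was read at 2.41, 1.32 and 1.53 FPKM in SAHH-KO and at 5.30, 4.59 and 4.74 FPKM in control, and the part of Nek6 reads in the Psmb7 values was not tested. Under TPM scaling Psmb5 and Psmb6 also passed as lower (limma adjusted p = 0.0380 and 0.0230). Psmb5 carries a further limit, since 46.8% of its 50-base words recur in the processed pseudogene Gm3375, which took 51.7% to 56.6% of the reads of the pair. The summed reads of Psmb5 and Gm3375 came to 178 ± 1.90 CPM in SAHH-KO and 188 ± 20.9 CPM in control (SD, n = 3 each). This sum also takes each read as counted once.

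Each inducible subunit was then set against the subunit it replaces, as its percentage of the summed FPKM of the pair, a quantity that library scaling does not move. Psmb8 made up 32.1%, 33.2% and 33.2% of its pair with Psmb5 in SAHH-KO and 23.2%, 21.9% and 23.8% in control. Psmb9 made up 8.88%, 7.57% and 7.97% of its pair with Psmb6 in SAHH-KO and 2.68%, 2.63% and 2.44% in control. Psmb10 made up 73.8%, 72.6% and 73.0% of its pair with Psmb7 in SAHH-KO and 47.7%, 42.1% and 43.4% in control. In each of the 3 pairs every SAHH-KO library was above every control library, and the mean differences were 9.87, 5.56 and 28.8 percentage points. The exact two-sided permutation p was 0.1 for each pair and 0.1 after adjustment over the 3 pairs, the smallest value that 3 against 3 libraries allow. Psmb10 exceeded Psmb7 in all 3 SAHH-KO libraries and was below it in all 3 control libraries, both on the deposited gene lengths and on the lengths of the principal transcripts, while Psmb9 stayed well below Psmb6 in both groups. The absolute shares depend on the gene length used and on the copy of Psmb5. With the length of the principal transcript the share of Psmb10 was 54.6% in SAHH-KO and 26.1% in control. That of Psmb9 was then 9.28% in SAHH-KO and 2.97% in control, and that of Psmb8 45.1% in SAHH-KO and 33.4% in control. With the reads of Gm3375 added to Psmb5, and each read taken as counted once, the share of Psmb8 was 18.4% in SAHH-KO and 12.2% in control.

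**Figure D3:**
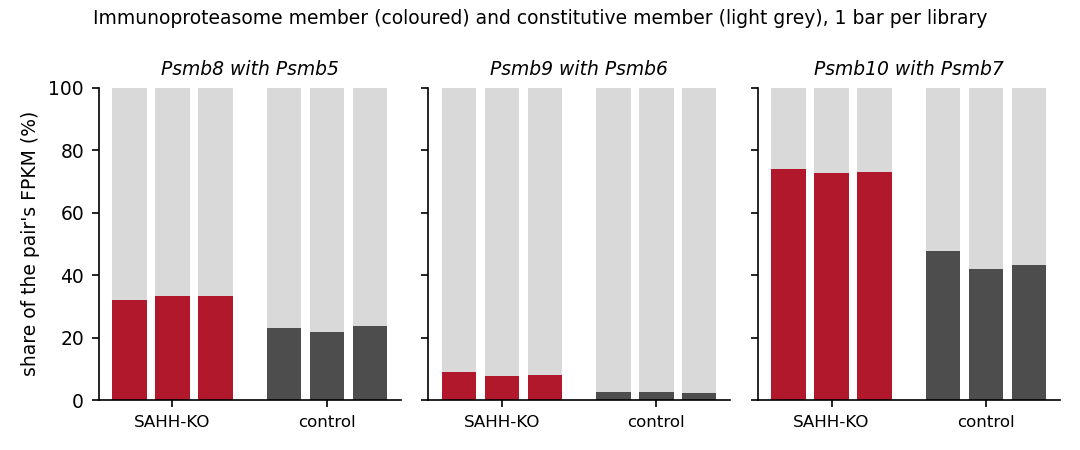
Share of each catalytic pair's summed FPKM (%) taken by the inducible subunit (coloured, red for SAHH-KO and dark grey for control) and by its constitutive counterpart (light grey), 1 bar per library. The inducible share is higher in all 3 SAHH-KO libraries than in all 3 control libraries in each pair, by 28.8 percentage points for Psmb10.

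Taken over the whole group, the 5 inducible genes summed to 318 ± 2.06 FPKM in SAHH-KO and 143 ± 11.9 FPKM in control (SD, n = 3 each), a ratio of 2.23. The 31 constitutive subunits summed to 2365 ± 71.1 FPKM in SAHH-KO and 2482 ± 88.4 FPKM in control, a ratio of 0.953. This sum includes the highly expressed Psma6 (means of 347 FPKM in SAHH-KO and 270 FPKM in control) and Psmd8 (183 and 134 FPKM), which were both higher in SAHH-KO. As a share of assigned reads the 31 subunits took 0.539% in SAHH-KO and 0.655% in control, a ratio of 0.823. Within a library, the mean log2(FPKM + 1) of the inducible genes minus that of the constitutive subunits was -0.15 ± 0.062 in SAHH-KO and -1.47 ± 0.159 in control, a difference of 1.32. The median log2 fold change was 1.19 over the inducible genes, -0.18 over the constitutive subunits and -0.01 over all genes tested.

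Of the other activators and the inhibitor none was higher with all 6 libraries, 1 was lower and 2 did not pass. All genes tested gave 26.4% higher and 26.8% lower. Psme3, the nuclear PA28γ activator, was read at 63.3, 70.3 and 63.4 FPKM in SAHH-KO and at 83.4, 92.7 and 86.4 FPKM in control. It was lower with no overlap between the groups (log2 -0.41, SE 0.0804, limma adjusted p = 0.00304), the opposite side of 0 from Psme1 and Psme2. Psme4, the PA200 activator linked to histone degradation, was read at 13.0, 11.7 and 11.6 FPKM in SAHH-KO and at 8.89, 13.1 and 9.07 FPKM in control (limma adjusted p = 0.202). Control replicate 2 lay above the SAHH-KO libraries and the other two control libraries lay below them; without that replicate Psme4 passed as higher (limma adjusted p = 0.00749). Psmf1, the inhibitor PI31, was read at 4.50, 5.11 and 5.13 FPKM in SAHH-KO and at 5.68, 5.20 and 4.97 FPKM in control, and the groups overlapped (limma adjusted p = 0.443).

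The α rings, which gate entry to the core, had 1 member higher, 2 lower and 4 that did not pass. Shares over all genes tested were 26.4% higher and 26.8% lower. Psma6 had the highest mean level of all 50 genes and was read at 319, 366 and 357 FPKM in SAHH-KO and at 245, 292 and 274 FPKM in control. It was higher in SAHH-KO (log2 0.36, SE 0.0924, limma adjusted p = 0.0108), with no overlap, but did not pass under TPM or assigned-read scaling (limma adjusted p = 0.101 and 0.105). Psma1 had 48.3, 50.7 and 47.7 FPKM in SAHH-KO and 53.6, 64.8 and 60.0 FPKM in control, and was lower (log2 -0.27, limma adjusted p = 0.0287). Its call was lost when any 1 library other than control replicate 1 was left out, with adjusted p of 0.0526 to 0.107. Psma1 also did not pass when all genes were kept in the test (limma adjusted p = 0.0531). Psma7 was also lower (log2 -0.24, limma adjusted p = 0.0263), and lost its call without control replicate 3, SAHH-KO replicate 1 or SAHH-KO replicate 3 (adjusted p of 0.0853 to 0.112). Without control replicate 1, Psma2 and Psma4 passed as lower (limma adjusted p = 0.0134 and 0.00532). Psma5 had a log2 fold change of -0.02 and shares more than 25% of its 50-base words with copies. None of the 4 non-catalytic β subunits passed. Their log2 fold changes ran from -0.05 for Psmb3 to 0.13 for Psmb1, whose libraries read 34.7, 32.4 and 31.8 FPKM in SAHH-KO and 24.3, 34.4 and 32.1 FPKM in control. Over the 14 constitutive core subunits 1 was higher, 3 were lower and 10 did not pass, with a median log2 fold change of -0.08; TPM or assigned-read scaling gave 0 higher and 9 lower.

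The 19S particle held most of the lower subunits: 1 of its 17 was higher, 10 were lower and 6 did not pass, with a median log2 fold change of -0.31, and 13 were lower under TPM or assigned-read scaling. With all genes tested, 26.4% were higher and 26.8% lower in the main fit. Whether the core and the regulatory particle differ from each other was not tested. Among the 6 ATPases, the motor ring that unfolds substrates, Psmc1, Psmc2, Psmc3 and Psmc5 were lower, and Psmc4 and Psmc6 did not pass. Psmc3 was read at 48.5, 52.4 and 52.3 FPKM in SAHH-KO and at 76.6, 71.1 and 78.1 FPKM in control, well apart (log2 -0.55, SE 0.0762, limma adjusted p = 0.000477). Psmc1 was read at 79.1, 93.8 and 86.7 FPKM in SAHH-KO and at 109.6, 111 and 122 FPKM in control, also without overlap (log2 -0.40, SE 0.0883, limma adjusted p = 0.00571). The call of Psmc2 (log2 -0.27, limma adjusted p = 0.0174) and, in part, that of Psmc5 (log2 -0.21, limma adjusted p = 0.0413) rested on single libraries. With all 6 libraries Psmc5 also did not pass without the intensity trend (limma adjusted p = 0.0590). Nor did it pass with limma-voom on the recovered reads (adjusted p = 0.0524) or with the replicate number as a block (limma adjusted p = 0.0678). Psmc5 did not pass without any 1 library other than control replicate 2 (limma adjusted p of 0.0523 to 0.147), nor Psmc2 without control replicate 3, SAHH-KO replicate 1 or SAHH-KO replicate 3 (0.0575 to 0.0744). Psmc6 had the largest spread of the ring, with 27.6, 30.7 and 29.0 FPKM in SAHH-KO and 29.7, 46.3 and 41.2 FPKM in control (limma adjusted p = 0.0554). Control replicate 1 was within the range of SAHH-KO, and without it Psmc6 passed as lower (limma adjusted p = 0.00113). Psmc4 had the smallest difference of the ring (log2 -0.17, limma adjusted p = 0.116).

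The base also contains the large scaffold subunits Psmd1 and Psmd2, which dock ubiquitin receptors and shuttle factors, and the ubiquitin receptor Psmd4. Psmd1 was read at 21.5, 24.9 and 22.4 FPKM in SAHH-KO and at 32.2, 40.1 and 35.3 FPKM in control. It had the lowest log2 fold change of the constitutive subunits, -0.62 (SE 0.101, limma adjusted p = 0.00113), with no overlap. It was the only 1 of the 31 past the threshold by at least 1.5-fold on that scale, while 14% of all genes tested were higher and 11.6% lower by as much. Psmd2 was read at 112, 116 and 111 FPKM in SAHH-KO and at 155, 143 and 149 FPKM in control (log2 -0.40, SE 0.0704, limma adjusted p = 0.00179). Psmd4 was read at 76.4, 76.3 and 75.7 FPKM in SAHH-KO and at 72.4, 64.6 and 67.2 FPKM in control, and did not pass although the groups did not overlap (log2 0.16, limma adjusted p = 0.0994); without control replicate 1 it passed as higher (limma adjusted p = 0.0285).

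The lid, which removes ubiquitin chains, had 1 subunit higher, 4 lower (Psmd6, Psmd7, Psmd12, Psmd13) and 3 that did not pass. Across all genes tested the shares were 26.4% higher and 26.8% lower. Without SAHH-KO replicate 3, Psmd7 and Psmd12 did not pass (limma adjusted p = 0.0530 and 0.0585), and Psmd6 did not pass without control replicate 2 or 3 or SAHH-KO replicate 1 or 3 (0.0622 to 0.0898). Psmd6 also did not pass when all genes were kept in the test (limma adjusted p = 0.0684). Psmd13 was read at 29.3, 32.3 and 31.0 FPKM in SAHH-KO and at 42.8, 45.8 and 47.3 FPKM in control, with no overlap between the groups (log2 -0.54, SE 0.0786, limma adjusted p = 0.000645). Of its exon bases 10.1% are shared with the opposite-strand gene Sirt3, read at 0.564, 0.572 and 0.403 FPKM in SAHH-KO and at 0.590, 0.541 and 0.543 FPKM in control. Psmd8 went the other way, at 189, 180 and 181 FPKM in SAHH-KO and 130.1, 137 and 135 FPKM in control (log2 0.45, SE 0.0682, limma adjusted p = 0.000775), and it remained higher in each of the 15 alternative fits. Psmd14, the deubiquitinase of the lid, was read at 60.9, 61.9 and 59.1 FPKM in SAHH-KO and at 55.3, 63.2 and 63.7 FPKM in control (log2 0.00, limma adjusted p = 0.992).

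The count of lower constitutive subunits rests on the libraries used. It was 13 of 31 with all 6 libraries, 8 without control replicate 3, 8 without SAHH-KO replicate 1 and 5 without SAHH-KO replicate 3. Under TPM or assigned-read scaling it was 22, with 1 higher. Control replicate 1 was the lowest of the 3 control libraries for 22 of the 31 subunits, and SAHH-KO replicate 1 the lowest of its group for 19 of the 31. The calls of Psmc1, Psmc3, Psmd1, Psmd2 and Psmd13 kept their direction and stayed under the threshold in each of the 15 alternative fits, and so did that of Psmd8.

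**Figure D4:**
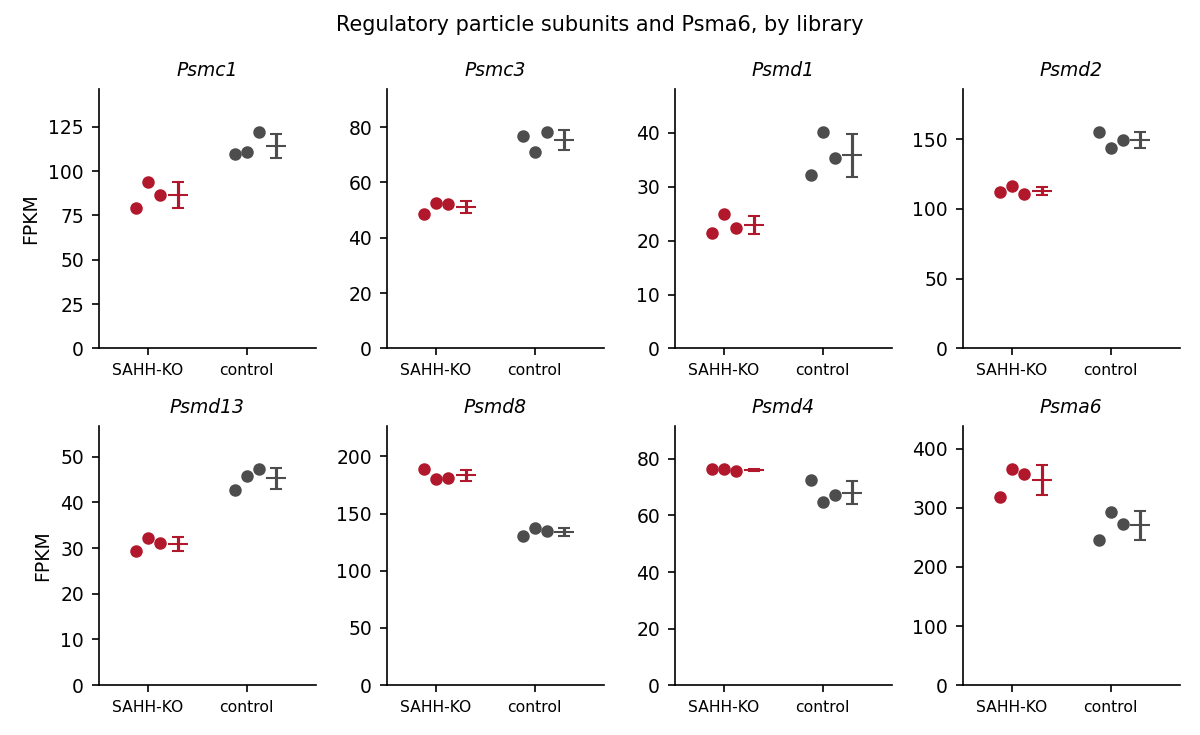
FPKM in each library (points) of the 19S subunits Psmc1, Psmc3, Psmd1, Psmd2, Psmd13, Psmd8 and Psmd4 and of the core subunit Psma6, SAHH-KO in red and control in grey, with the mean and SD of 3 libraries beside the points; each axis starts at 0. SAHH-KO lies below control in the first 5 panels and above it in the last 3, of which Psmd4 did not pass the test.

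Among the constitutive subunits, levels differed more between subunits than between groups. By mean FPKM, which is per kilobase of gene, the α ring ran from 23.8 for Psma3 to 347 for Psma6 in SAHH-KO and from 26.2 to 270 for the same genes in control. Per kilobase of the principal transcript, the range was 32.5 to 411 FPKM in SAHH-KO and 35.8 to 320.0 FPKM in control, again from Psma3 to Psma6. Among the α ring, the constitutive β ring, the ATPases and the other 19S subunits, the ATPases were the most even by this measure, with a ratio of highest to lowest of 2.31 in SAHH-KO and 2.27 in control, from Psmc6 to Psmc1.

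Assembly chaperones, which guide core and regulatory particle together and do not remain in the finished complex, included none that was higher. Of 7, Psmd5, Psmd9 and Psmg2 were lower and Psmd10, Psmg1, Psmg3 and Psmg4 did not pass, with a median log2 fold change of -0.29. By comparison, 26.4% of all genes tested were higher and 26.8% lower. TPM or assigned-read scaling gave 5 lower chaperones. Psmd5, a chaperone of the ATPase ring, was read at 4.33, 4.29 and 4.07 FPKM in SAHH-KO and at 5.36, 7.13 and 7.17 FPKM in control (log2 -0.52, SE 0.113, limma adjusted p = 0.00504). Psmd9, which acts on the same ring, was read at 3.33, 3.74 and 3.26 FPKM in SAHH-KO and at 5.54, 4.40 and 5.39 FPKM in control (log2 -0.46, SE 0.103, limma adjusted p = 0.00628). It shares 25.5% of its exon bases with the opposite-strand gene Gm26745, which had 0 reads in every library. Psmg2, which pairs with Psmg1 to build the α ring, was read at 11.2, 11.7 and 9.82 FPKM in SAHH-KO and at 13.5, 18.04 and 15.3 FPKM in control (log2 -0.47, SE 0.117, limma adjusted p = 0.00968). The SAHH-KO libraries of these 3 genes were all below the control libraries. Psmg3 sat at the threshold (limma adjusted p = 0.0501), with 3.80, 4.70 and 3.89 FPKM in SAHH-KO and 5.49, 4.62 and 5.76 FPKM in control, and passed as lower without SAHH-KO replicate 2 or control replicate 2 (limma adjusted p = 0.0321 and 0.0232). Psmd10, known as gankyrin, had the highest signed log2 fold change of the chaperones, 0.07 (limma adjusted p = 0.489), and Psmg4 had one of 0.00 (limma adjusted p = 0.996).

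Both remaining genes were lowly expressed. Psma8, the α subunit of the testis proteasome, was read at 4.54, 3.30 and 5.49 FPKM in SAHH-KO and at 6.10, 7.86 and 7.70 FPKM in control. It was lower (log2 -0.61, SE 0.158, limma adjusted p = 0.0119) and did not pass when all genes were kept in the test (limma adjusted p = 0.0570). Psmc3ip, a partner of the meiotic recombinase DMC1 that works in DNA strand exchange, was read at 1.62, 2.89 and 3.11 FPKM in SAHH-KO and at 6.08, 5.97 and 6.03 FPKM in control. It had the lowest log2 fold change of the 49 tested genes, -1.02 (SE 0.162, limma adjusted p = 0.00102), and 21.2% of its exon bases are shared with the opposite-strand gene Mlx. Mlx was read at 24.3, 23.8 and 23.8 FPKM in SAHH-KO and at 25.5, 31.0 and 28.4 FPKM in control. The part of Mlx reads in the Psmc3ip values was not tested.

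Partners of the proteasome with other names were examined next. Of 13 tested, 2 were higher and 4 lower, with a median log2 fold change of -0.27, while 26.4% and 26.8% of all genes tested passed in these directions. Either other scaling gave 1 higher and 7 lower. Zfand5, a ubiquitin-binding activator of the proteasome, was 1.54-fold higher (log2 0.59, limma adjusted p = 0.00258), and the small lid subunit Sem1 was higher (log2 0.31, limma adjusted p = 0.0127) but did not pass under either other scaling. Uchl5, a deubiquitinase of the 19S particle, was read at 13.0, 15.3 and 13.1 FPKM in SAHH-KO and at 21.9, 28.2 and 26.6 FPKM in control (log2 -0.84, limma adjusted p = 0.000406), and Pithd1, Zfand2a and Ube3c were lower too. Adrm1, the ubiquitin receptor that recruits Uchl5, did not pass (limma adjusted p = 0.333). Pomp, the chaperone that completes core assembly, had 19.1, 22.1 and 21.9 FPKM in SAHH-KO and 20.9, 20.8 and 23.9 FPKM in control, and did not pass (limma adjusted p = 0.649).

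NRF1, encoded by Nfe2l1, is the factor that raises proteasome subunit genes when the proteasome is impaired, after release from the endoplasmic reticulum by Vcp, deglycosylation by Ngly1 and cleavage by Ddi2. Nfe2l1 was read at 131, 114 and 115 FPKM in SAHH-KO and at 59.8, 49.5 and 51.9 FPKM in control, a 2.23-fold difference with no overlap (log2 1.14, limma adjusted p = 3.29e-05). Of the 10 tested genes of its route 4 were higher (Nfe2l1, Maff, Sel1l, Mafk) and 2 lower (Ngly1, Vcp), with a median log2 fold change of 0.23, and 3 higher and 3 lower with a median of 0.08 under TPM or assigned-read scaling. Over all genes tested, the shares in the main fit were 26.4% higher and 26.8% lower. Ngly1 had 1.52, 2.36 and 1.91 FPKM in SAHH-KO and 2.62, 4.02 and 3.47 FPKM in control. The antioxidant core was held by 4 of 25 matched constitutive subunits, or 16%, against 12.4% of all promoter windows. Of these 4, Psmd12 was lower (log2 -0.33, limma adjusted p = 0.0114) and Psmb5, Psmb6 and Psmc6 did not pass, while 13 of all 31 constitutive subunits were lower. Among the other members with the core, Psmd9 was lower (limma adjusted p = 0.00628) and Psme4 did not pass (limma adjusted p = 0.202). Whether NRF1 acts on these genes was not tested. Among 13 tested genes for ubiquitin, its activating enzymes and shuttle receptors, 4 were higher and 0 lower (limma, median log2 fold change 0.13). Beside these counts stand the same shares of all genes tested, 26.4% higher and 26.8% lower. The higher genes included the autophagy receptor Sqstm1 (2.66-fold) and the activating enzyme Uba1 (1.19-fold). The median of these 13 genes turned to -0.03 under either other scaling, where Uba1 did not pass and 3 genes were lower under TPM scaling and 4 under assigned-read scaling.

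Genes for the steps of antigen presentation that follow the immunoproteasome were also higher. Of 9 genes for peptide transport, loading and MHC class I, 8 were higher and 0 lower (limma, median log2 fold change 1.11). The aminopeptidase Erap1 did not pass (limma adjusted p = 0.0590). Genes tested as a whole were higher in 26.4% and lower in 26.8%. Tap1, which neighbours Psmb9, was read at 58.3, 53.3 and 52.6 FPKM in SAHH-KO and at 4.97, 4.07 and 4.22 FPKM in control, 12.4-fold higher. The neighbouring Tap2 was 4.72-fold higher, the class I regulator Nlrc5 4.93-fold and the loading factor Tapbp 3.12-fold. Within that stretch of chromosome 17 the ratio was thus 12.4 for Tap1, 4.72 for Tap2, 3.16 for Psmb9 and 1.54 for Psmb8. All 6 tested transcription factors of the interferon response were higher, with a median log2 fold change of 1.72, and these counts and those of antigen presentation were the same under either other scaling. Irf1 was read at 30.5, 17.3 and 18.3 FPKM in SAHH-KO and at 1.80, 1.53 and 1.69 FPKM in control. Stat2 was 14.0-fold higher.

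**Figure D5:**
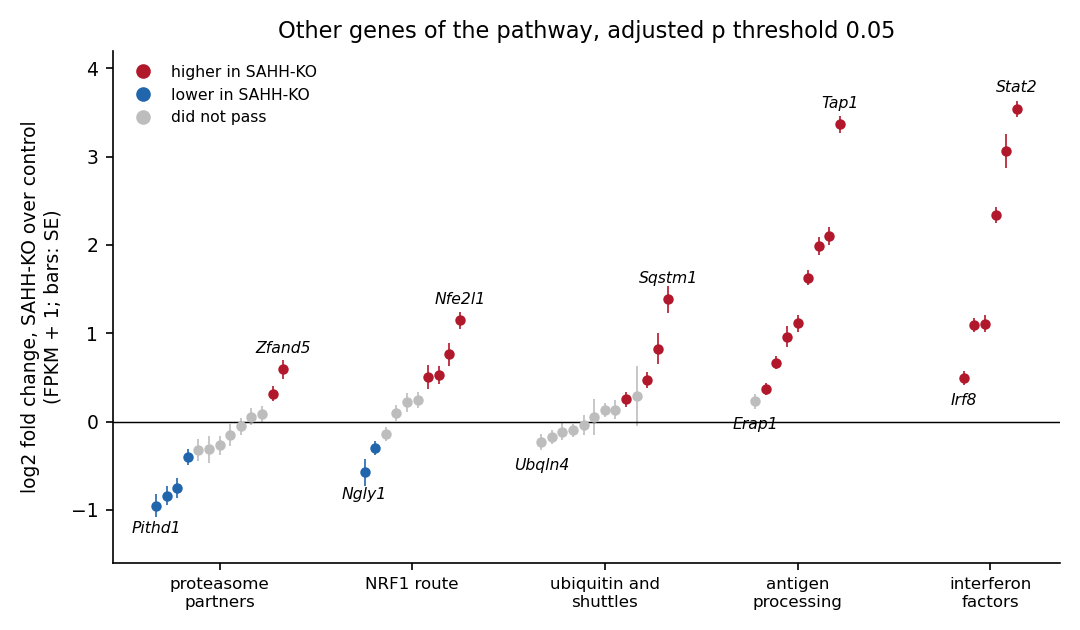
Log2 fold change (SAHH-KO over control, FPKM + 1) of the tested genes of 5 lists around the proteasome, with points for the estimate and bars for its SE; colours mark the side of the adjusted p threshold. The interferon factors and 8 of 9 antigen-processing genes are higher, while the proteasome partners fall on both sides of 0.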

How the data were processed

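The authors deposited 1 table of FPKM values per gene and library. FastQC, featureCounts, STAR and Trim Galore, and GRCm38 (mm10) as build, are listed per the submitters' processing notes without versions or order. FPKM times gene length gave whole reads within 0.01 for 100% of values, from which reads per gene were recovered. The deposited FPKM rest on library sizes that were 0.937 to 0.960 times the assigned reads in SAHH-KO and 1.05 to 1.07 times in control. Relative to each other, these sizes matched median-of-ratios sizes, which set each library by the median ratio of its genes to their mean over libraries. The ratio of the deposited to the median-of-ratios size was 1 in all 6 libraries. Genes with at least 1 FPKM in at least 3 of 6 libraries were tested on log2(FPKM + 1) with limma 3.58.1 in R 4.3.3 (intensity trend, two-sided, group as the only term), adjusted over all 10362 genes; this scale understates changes of low genes. Folds are ratios of mean FPKM. A floor of 3 reads is 0.168 to 0.197 FPKM for a gene of 1 kb, and covers counting error only. The fit was also run on simulated data with far fewer changed genes and the same dispersion for every gene. That run therefore does not give the error rate of the fit in these data. Members named in full are those of the catalytic, activator and tissue-restricted roles, the extremes of each role and changes of at least 1.5-fold, plus up to 4 genes of each other list; a few more were named after their values were seen. Some list genes are not reported here. The members and lists were chosen with earlier results of these data known. Copies and shared exons come from GENCODE M21, and 48 of the 50 genes have the same coordinates there.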

Additional observations from a re-analysis of the deposited data

How the results depend on the processing

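Of the 27 proteasome genes past the threshold, 17 stayed past it in the same direction under every alternative fit and 10 lost it under at least 1; of the 22 others, 9 passed under none and 13 under at least 1. No direction of a called gene reversed. TPM scaling and assigned-read scaling gave the same counts: 30 lower members, and of the constitutive subunits 1 higher, 22 lower and 23 in either direction. Leaving out each library in turn gave 11 to 21 lower members, 5 to 15 lower constitutive subunits and 7 to 18 in either direction; the lowest values came without SAHH-KO replicate 3. The cause was not tested, beyond the smaller number of libraries. The difference of inducible minus constitutive log2 means was 1.24 to 1.40 over the same omissions, 1.37 with a pseudocount of 0.1 and 1.36 with TPM scaling. The gain in the Psmb8 share was 12.2 percentage points in reads, 11.7 with principal transcript lengths and 6.22 with the reads of Gm3375, by construction of the denominator, and that of Psmb9 9.83 in reads and 6.31 with principal lengths. Leaving out the 4 members that share at least 25% of their words with copies left 6 higher and 19 lower. These last settings, the principal lengths and a robust fit were chosen after seeing the data. Whether equal replicate numbers pair the libraries could not be settled with 3 libraries per group. The correlations of deviations between equal numbers were small, at 0.0955, 0.101 and -0.00557. SAHH-KO replicates 1 and 2 correlated best with the control of their own number, and SAHH-KO replicate 3 did not. With the replicate number as a block 8 members were higher and 20 lower, and 2 and 14 of the constitutive subunits: Psmc5 no longer passed (limma adjusted p = 0.0678), while Psma4 (0.0462) and Psmc6 (0.0228) did.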
